A study of Mus musculus with 39 samples.

Results

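The experiment compared muscle stem cells from mice perfused with a fixative before the cells were isolated with muscle stem cells from mice that were not fixed, across all genes. It was chosen by its labels and not by any measured value, and it holds 7 of the 39 libraries of the series, 4 from fixed cells (replicates 1, 3, 4 and 5) and 3 from unfixed cells (replicates 1, 2 and 3). Mice of the fixed group were perfused with 1% paraformaldehyde, an agent that crosslinks proteins and nucleic acids, and their stem cells were then sorted by flow cytometry. Mice of the unfixed group had no fixative, and their stem cells were sorted in the same way. What both groups share is that no 4-thiouracil (the label for new RNA used elsewhere in the series) and no alpha-amanitin were given, that RNA was extracted with a kit made for fixed tissue, and that 1 ng of RNA was reverse-transcribed from oligo(dT), so that polyadenylated RNA was read. Library amplification took 13 to 15 cycles, and paired reads were 101 bp long. The labels give no strain, genotype, age, muscle, sorting marker or batch, nor whether each replicate comes from another animal. The p-values below therefore weigh a difference only against the scatter of these particular samples, and that scatter may be technical.

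Muscle stem cells, also called satellite cells, lie quiescent between a fibre and its basement membrane, express the transcription factor Pax7, and after injury activate, divide and differentiate into new fibres. Taking them out of the muscle needs hours of mincing, enzyme digestion and sorting, and dissociation is known to switch on immediate early genes, cytokines and heat shock genes in many cell types. Fixation before dissociation is meant to hold RNA in the state it had in the tissue. The labels state that fixation served to read the transcriptome of the stem cells as it is in vivo. Fixation itself, the crosslinked state of the RNA and every step that a live cell can respond to differ together between the groups, so these cannot be told apart by the design. Bulk RNA also cannot tell fewer cells of a type from less RNA per cell.

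Levels are given as RPKM, which divides a gene's reads by its length in kilobases and by the scaled size of the library. Libraries held 22704011 to 25045404 reads, so depth was close to equal. Across the 12816 genes tested, Pearson's r of log2 levels ran from 0.9255 to 0.9605 among unfixed libraries, from 0.8292 to 0.954 among fixed libraries and from 0.7285 to 0.8403 between the groups (a description over genes, which are not independent). Fixed 4 and fixed 1 stood farthest from the other fixed libraries. In fixed 1 a single gene, Mucl2, which encodes a small mucin-like protein, took 5.93% of all reads, against 0.00233% to 0.158% in the other fixed libraries and 0.000168% to 0.00109% in unfixed ones. The repeat-derived gene model Gm10800 was among the 5 largest genes in unfixed 2 and 3 and in fixed 1, 4 and 5. Results that rest on fixed 1 and fixed 4 were recomputed without these libraries. All 27 satellite cell markers tested had reads in every library, but so did nearly all genes. Of the 13938 genes, 13931 to 13938 were above 0 in each library.

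Of the genes tested, 1564 (12.2%) were higher and 1387 (10.8%) were lower in fixed cells at an adjusted p under 0.05 in limma. At least 2-fold, 9.84% were higher and 9.53% were lower. At least 16-fold, 74 genes (0.577%) were lower and 7 (0.0546%) were higher. The largest differences were therefore nearly all on the side of lower levels in fixed cells. Without unfixed 3 the counts were 809 higher and 718 lower, and without unfixed 2 they were 982 and 880. Without fixed 1 and fixed 4 together, they were 2066 and 1719. The median log2 difference over all genes tested was 0.07, and the libraries of the groups did not overlap for 35.8% of genes (19.6% with fixed cells higher, 16.2% lower). Each gene list below is to be read against that median and against the shares of 12.2% and 10.8%.

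**Figure D1:**
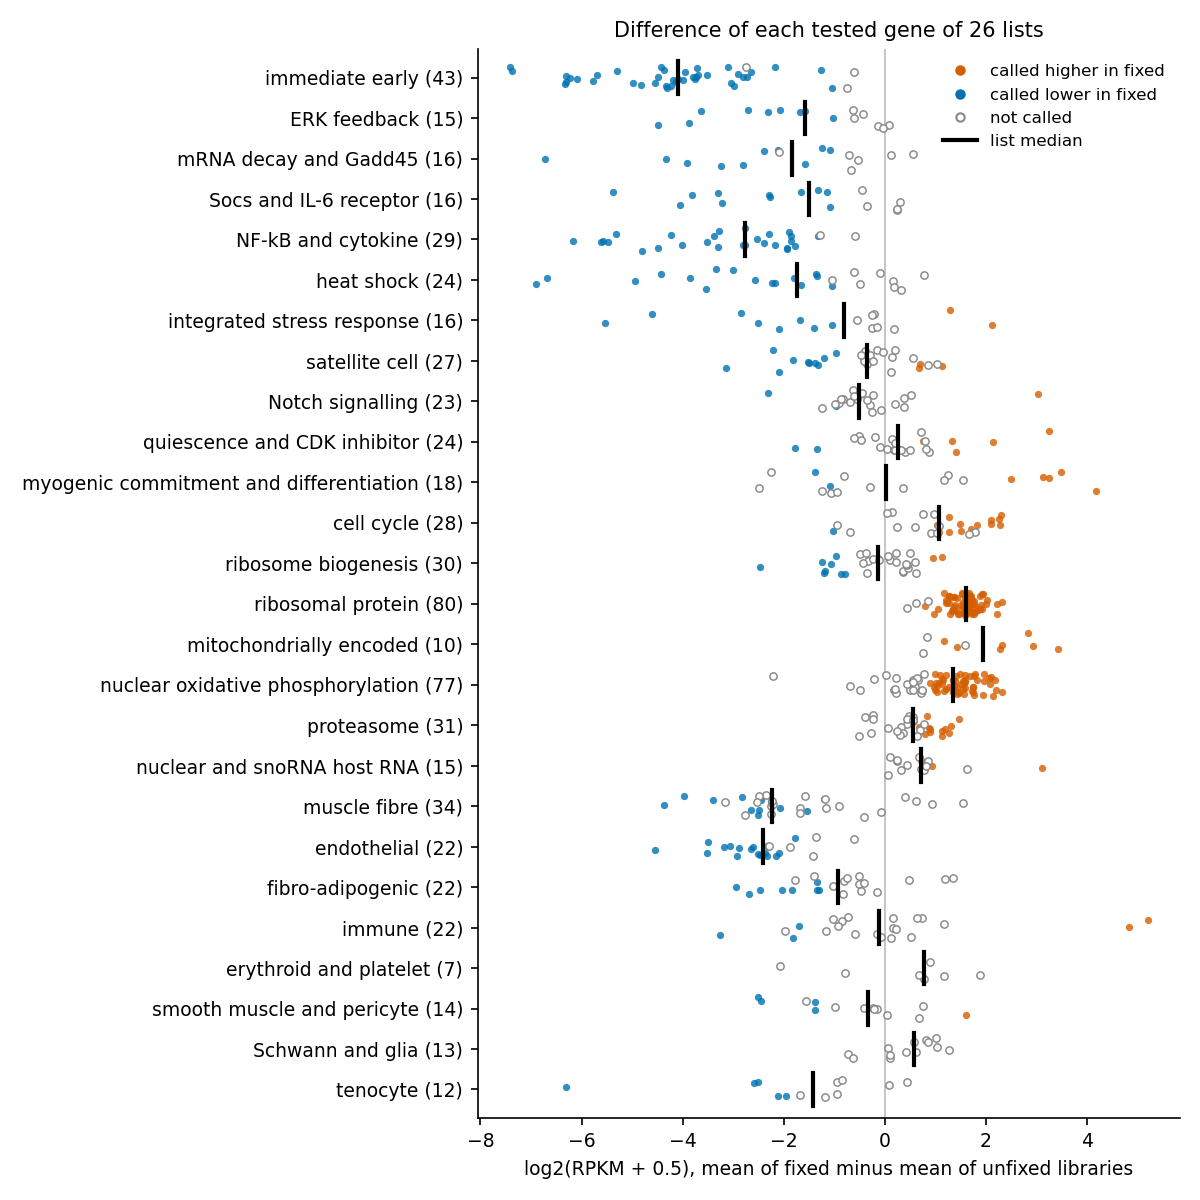
Log2 difference of each tested gene (points, fixed minus unfixed, on the log2(RPKM + 0.5) scale) for 26 gene lists, with the number of tested genes in parentheses and the list median as a black bar. The immediate early list sits farthest to the left, at a median of -4.10, and the ribosomal protein list lies wholly to the right of 0.

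Immediate early genes, whose transcription starts within minutes of a stimulus without new protein, fell in fixed cells almost as a whole list: 40 of 43 tested genes were lower, none was higher, and the median log2 difference was -4.10. The list took 5.79 ± 0.371% of reads in unfixed cells (SD, n = 3) and 0.250 ± 0.039% in fixed cells (SD, n = 4). Fos (chromosome 12, 85473890 to 85477273), which pairs with Jun proteins to form the transcription factor AP-1, stood at 2110, 2131 and 2534 RPKM in unfixed 1, 2 and 3 and at 32.5, 29.5, 77.7 and 36.5 RPKM in fixed 1, 3, 4 and 5. It was 54.7-fold lower in fixed cells (log2 difference -5.77 ± 0.32 SE, adjusted p = 8.54e-06 in limma). The groups lie far apart, and fixed 4 is the highest of the fixed libraries. Fosb, a close relative of Fos, stood at 696, 827 and 997 RPKM in unfixed cells and at 2.76, 2.48, 9.84 and 5.80 RPKM in fixed cells, which made it 166-fold lower (adjusted p = 8.58e-06). Fosl1, the third Fos family gene named, was 78.9-fold lower, again with its highest fixed value, 11.6 RPKM, in fixed 4.

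The Jun partners of AP-1 differed in the size of their fall. Junb stood at 1996, 2432 and 2784 RPKM in unfixed cells and at 17.5, 22.4, 62.2 and 39.8 RPKM in fixed cells (74.6-fold lower, adjusted p = 1.75e-05). Jun stood at 619, 699 and 1109 RPKM against 40.9, 53.1, 11.3 and 46.8 RPKM (23.5-fold lower, adjusted p = 0.000302). Jund, the member known to be expressed in resting cells too, stood at 638, 751 and 987 RPKM against 94.0, 54.1, 131 and 98.6 RPKM (8.62-fold lower, adjusted p = 0.000187). No library of either group overlapped the other for any of the 3 genes, and Jund kept the highest level in fixed cells. Atf3, a stress-induced factor that can bind AP-1 and related sites, had the largest fall of any gene named by size: 437, 831 and 891 RPKM in unfixed cells against 0.594, 4.09, 3.65 and 11.8 RPKM in fixed cells, 172-fold lower (adjusted p = 0.000116).

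Other transcription factors of the list fell by like amounts. Egr1, a zinc finger factor induced by serum and by ERK signalling, stood at 4479.5, 2954 and 3908 RPKM in unfixed cells, among the 3 genes with the most reads in each of these libraries, and at 29.5, 49.7, 61.8 and 52.0 RPKM in fixed cells. It was 79.1-fold lower (log2 difference -6.31 ± 0.28 SE, adjusted p = 5.8e-06 in limma). Ier2 (chromosome 8, 84661331 to 84662852) stood at 618, 691 and 746 RPKM against 37.2, 44.1, 47.2 and 41.6 RPKM, with little spread within either group (15.9-fold lower, adjusted p = 5.8e-06). Myc, the growth-promoting factor, stood at 504, 683 and 387 RPKM against 33.6, 26.98, 20.6 and 28.02 RPKM and was 18.6-fold lower. Csrnp1, a nuclear protein gene induced with AP-1, was 67.8-fold lower, and the survival gene Ier3 was 80.6-fold lower. The 3 tested members that were not called also had negative differences: Cebpb -2.74 (adjusted p = 0.0526, called under 8 of 18 alternatives), the clock gene Per1 -0.74 (0.314) and Ier5l -0.61.

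**Figure D2:**
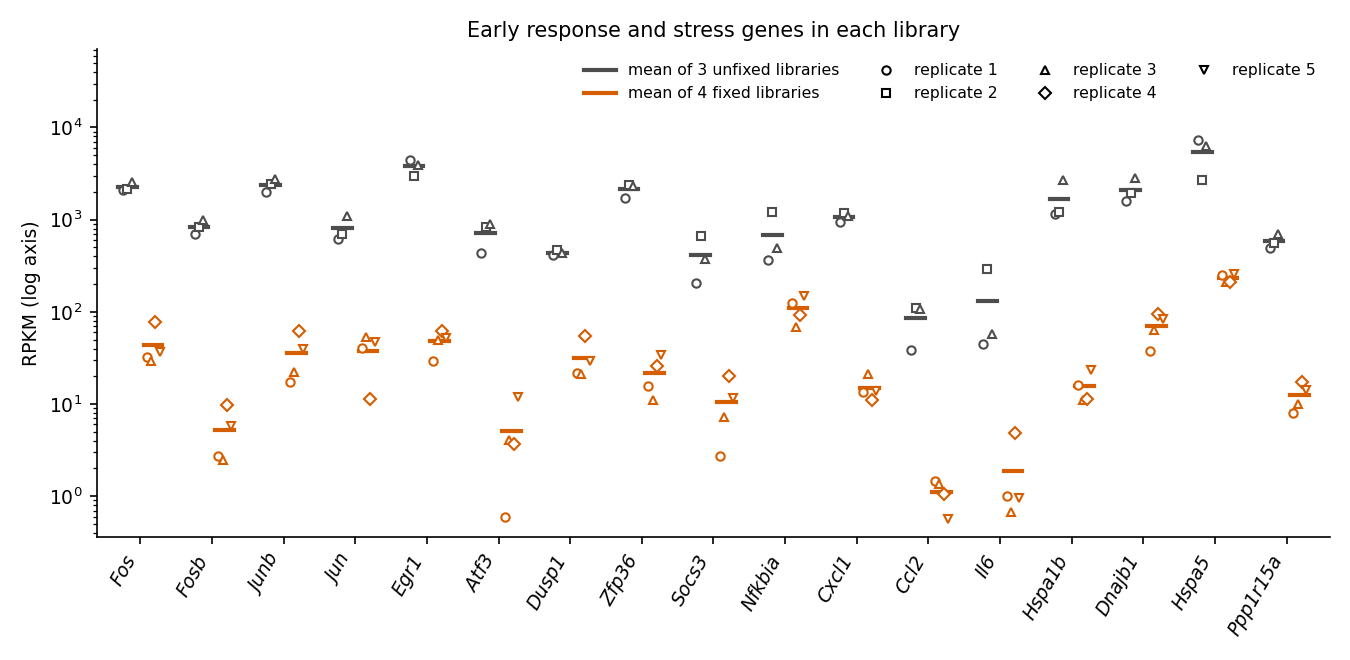
RPKM (log axis) of 17 early response and stress genes in the 3 unfixed and 4 fixed libraries, each point 1 library and each bar a group mean. For every gene shown the fixed libraries lie below all unfixed libraries, and the groups lie closest for Nfkbia. The gap between the group means drawn is widest for Fosb (840 RPKM in unfixed and 5.22 RPKM in fixed cells). On the log2 scale of the tests the difference was largest for Atf3 (-7.42).

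Feedback genes that shut these signals down were lower as well. On the list of ERK pathway inhibitors 9 of 15 genes were lower and none higher (median -1.59). Dusp1, a phosphatase that inactivates MAP kinases, stood at 409, 465 and 431 RPKM in unfixed cells and at 21.7, 20.9, 54.6 and 29.3 RPKM in fixed cells (14.6-fold lower, adjusted p = 6.71e-05). Errfi1, an inhibitor of the EGF receptor, was 22.5-fold lower, and Spry4 was 4.22-fold lower. Spry1, which is known to keep satellite cells quiescent, stood at 69.4, 87.7 and 96.9 RPKM against 77.0, 85.6, 72.5 and 96.3 RPKM, with overlapping groups and a log2 difference of -0.03 (95% interval -0.47 to 0.42). The sign of that value changed with the processing. Dusp6, the cytoplasmic ERK phosphatase, had a difference of -0.43 (adjusted p = 0.214).

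Among genes for mRNA decay factors and the Gadd45 stress proteins, 10 of 16 were lower and none was higher (median -1.83). Zfp36, which binds AU-rich elements and speeds the decay of cytokine mRNA, stood at 1735, 2395 and 2306 RPKM in unfixed cells and at 15.7, 10.97, 25.6 and 33.7 RPKM in fixed cells. It was 105-fold lower (log2 difference -6.72 ± 0.35 SE, adjusted p = 6.77e-06 in limma). Btg2, which recruits the deadenylase complex, was 20.2-fold lower and its relative Btg1 was 4.33-fold lower. Gadd45b, a growth arrest gene, stood at 217, 316 and 291 RPKM against 9.34, 24.7, 20.3 and 19.9 RPKM (15.1-fold lower). The general decay genes Cnot7, Dcp1a, Dcp2 and Pan2 were not called, with differences from -0.71 to 0.56.

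The NF-kB and cytokine list moved 1 way as well: 27 of 29 genes were lower, none was higher, and the median was -2.77. Cxcl1 (chromosome 5, 90891241 to 90893115), a chemokine for neutrophils, stood at 948, 1193 and 1098 RPKM in unfixed cells and at 13.6, 21.4, 10.9 and 13.9 RPKM in fixed cells, 71.7-fold lower (adjusted p = 4.57e-06). Ccl2, which attracts monocytes, stood at 38.3, 109 and 107 RPKM against 1.46, 1.34, 1.05 and 0.573 RPKM (49.3-fold lower, adjusted p = 3.86e-05). Il6, the inflammatory cytokine, stood at 44.9, 292 and 58.1 RPKM against 1.00, 0.682, 4.88 and 0.959 RPKM (47.6-fold lower, adjusted p = 0.000573). All unfixed libraries exceeded all fixed ones for the 3 genes, but unfixed 2 alone held a several-fold higher Il6 level than unfixed 1 and 3. The NF-kB inhibitor gene Nfkbia, itself an NF-kB target, stood at 370, 1207 and 493 RPKM against 124, 68.4, 92.3 and 150 RPKM (5.77-fold lower, adjusted p = 0.00212), also with its peak in unfixed 2. Genes for the NF-kB subunits fell less, Rela 4.52-fold and Nfkb1 3.73-fold. The 2 members not called were Tnf, at 0.740 to 2.58 RPKM in unfixed cells, and Il33.

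Signalling downstream of IL-6 showed the same direction, with 11 of 16 genes of the Socs and IL-6 receptor list lower and none higher (median -1.49). Socs3, the feedback inhibitor of this pathway, stood at 205, 658 and 379 RPKM in unfixed cells and at 2.75, 7.27, 20.1 and 11.7 RPKM in fixed cells (41.6-fold lower, adjusted p = 0.000343). Stat3, its transcription factor, stood at 136, 143 and 176 RPKM against 16.7, 17.1, 12.3 and 17.3 RPKM (9.36-fold lower, adjusted p = 1.97e-05). The shared receptor chain Il6st was 4.92-fold lower and the oncostatin M receptor Osmr 14.1-fold lower. Reads of 22 endothelial markers, cells that can also express these cytokines and receptors, took 0.094%, 0.521% and 0.227% of reads in unfixed 1, 2 and 3 and 0.019% to 0.059% in fixed cells, so their highest share was in unfixed 2 too. Their part in the cytokine result was not tested.

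Heat shock genes encode chaperones that are induced when proteins unfold. Of 24 tested, 16 were lower in fixed cells and none was higher (median -1.73), and the list took 4.91 ± 1.11% of reads in unfixed cells (SD, n = 3) against 0.953 ± 0.149% in fixed cells (SD, n = 4). Hspa1b (chromosome 17, 34956436 to 34959238), an inducible Hsp70 gene, stood at 1155, 1224 and 2688 RPKM in unfixed cells and at 15.96, 11.1, 11.4 and 23.6 RPKM in fixed cells, 102-fold lower (log2 difference -6.67 ± 0.36 SE, adjusted p = 7.33e-06 in limma). Its near-identical neighbour Hspa1a was 120-fold lower, but reads can be assigned to either copy, so the values of the 2 genes are uncertain one by one. Dnajb1, the Hsp40 partner of Hsp70, stood at 1581, 1940 and 2837 RPKM against 38.05, 63.7, 94.1 and 83.2 RPKM (30.9-fold lower), and the co-chaperone Bag3 was 14.4-fold lower. Hspa5, the Hsp70 of the endoplasmic reticulum, was among the 4 genes with the most reads in each unfixed library, at 7334, 2673 and 6246 RPKM, and stood at 251, 211, 211 and 257 RPKM in fixed cells (21.4-fold lower, adjusted p = 4.76e-05). Of the abundant cytosolic chaperones, the constitutive Hsp70 gene Hspa8 was 3.49-fold lower and the stress-inducible Hsp90 gene Hsp90aa1 3.16-fold lower. The constitutive Hsp90 gene Hsp90ab1 was not called (log2 difference -0.48, adjusted p = 0.17). Hsf1, the heat shock transcription factor, had a log2 difference of 0.19 (95% interval -0.31 to 0.69) whose sign changed with the processing. The small heat shock gene Cryab had 0.78 (adjusted p = 0.175), and 1.14 without fixed 1 (adjusted p = 0.013).

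The integrated stress response, in which phosphorylated eIF2 alpha favours translation of Atf4, was split: 8 of 16 genes were lower and 2 were higher (median -0.80). Ppp1r15a, the subunit that brings a phosphatase back to eIF2 alpha, stood at 493, 556 and 703 RPKM in unfixed cells and at 8.08, 10.003, 17.2 and 14.3 RPKM in fixed cells (46.6-fold lower, adjusted p = 6.77e-06). Chac1, a glutathione-degrading enzyme, was 24.3-fold lower, and Atf4 itself 3.20-fold lower. The 2 higher genes encode enzymes of serine synthesis: Psat1 stood at 10.1, 6.82 and 11.2 RPKM against 22.5, 47.7, 50.5 and 53.8 RPKM (4.33-fold higher, adjusted p = 0.00183), and Phgdh was 2.45-fold higher (adjusted p = 0.0381). The call of Phgdh was lost under 8 of 18 alternatives. Ddit3, the pro-apoptotic factor CHOP, had a difference of -0.55 (adjusted p = 0.225).

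The 7 lists described so far hold 157 tested genes after shared members are counted once. Of these, 119 (75.8%) were lower and 2 were higher, against 10.8% and 12.2% of all genes. They took 13.1%, 11.8% and 14.1% of reads in unfixed 1, 2 and 3 and 1.56%, 1.76%, 1.42% and 1.88% in fixed 1, 3, 4 and 5. Of the 74 genes at least 16-fold lower, 40 stood on these lists and 34 did not. Among the 34, Tnfaip6, a secreted hyaluronan-binding protein induced by inflammation, stood at 209, 163 and 272 RPKM in unfixed cells and at 1.89, 3.54, 2.90 and 4.17 RPKM in fixed cells (59.8-fold lower, adjusted p = 6.77e-06). The antioxidant enzyme Srxn1 was 55.6-fold lower, the hyaluronan synthase Has1 50.8-fold, the heparin-binding EGF-like growth factor Hbegf 30.1-fold, haem oxygenase Hmox1 26.3-fold, the urokinase receptor Plaur 22.9-fold and the kinase Sgk1 21.03-fold. These 6 were picked from the 34 after their values were seen.

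Some genes that fell held a binding motif close to the start site, and others, such as Atf3 and Dnajb1, held none of those searched. The 10 stretches of 60 bases printed here were picked because they hold one. They are RefSeq sequences on GRCm38.p6, the build of the files' mm10 coordinates, read 5' to 3' on the strand of the gene and wholly before the start site. Capitals mark the motif. For the NF-kB site they are Cxcl1 (chr5:90891149-90891208, plus strand), Cxcl2 (chr5:90903777-90903836, plus strand), Nfkbia (chr12:55492648-55492707, minus strand) and Il6 (chr5:30013045-30013104, plus strand).
Cxcl1: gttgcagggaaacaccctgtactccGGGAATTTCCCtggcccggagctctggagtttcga
Cxcl2: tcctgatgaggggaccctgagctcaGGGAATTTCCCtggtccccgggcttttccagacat
Nfkbia: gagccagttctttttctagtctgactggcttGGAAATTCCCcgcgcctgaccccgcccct
Il6: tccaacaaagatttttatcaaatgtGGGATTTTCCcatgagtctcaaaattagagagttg
The capitals begin 71 bases before the start of Cxcl1, 97 before that of Cxcl2, 29 before that of Nfkbia and 44 before that of Il6, and in Cxcl1 and Cxcl2 they join matches on both strands that overlap.

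For the heat shock element the stretch is that of Hspa1b (chr17:34959309-34959368, minus strand), and for AP-1 that of Tnfaip6 (chr2:52037944-52038003, plus strand). For the cAMP response element, bound by Atf and Creb factors, they are Btg2 (chr1:134079288-134079347, minus strand), Maff (chr15:79347460-79347519, plus strand) and Ppp1r15a (chr7:45526269-45526328, minus strand). For the CArG box, bound by serum response factor, it is Zfp36 (chr7:28379252-28379311, minus strand).
Hspa1b: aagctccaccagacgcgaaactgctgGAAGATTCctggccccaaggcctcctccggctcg
Tnfaip6: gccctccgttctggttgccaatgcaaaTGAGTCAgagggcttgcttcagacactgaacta
Btg2: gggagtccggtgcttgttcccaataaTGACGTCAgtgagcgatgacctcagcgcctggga
Maff: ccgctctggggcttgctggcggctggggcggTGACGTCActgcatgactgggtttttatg
Ppp1r15a: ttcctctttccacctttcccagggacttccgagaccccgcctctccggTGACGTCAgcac
Zfp36: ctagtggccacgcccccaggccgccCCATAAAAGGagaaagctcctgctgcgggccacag
The capitals begin 104 bases before the start in Hspa1b, 142 in Tnfaip6, 166 in Btg2, 29 in Maff, 12 in Ppp1r15a and 58 in Zfp36.

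Each motif was searched on both strands in windows of 300 bases (250 before the start and 50 after it), which 9732 of the 12816 tested genes had. Of these windows, 9031 began from a start within 1000 bases of the deposited gene model's 5' end. The NF-kB site, searched by its name's consensus, was in 974 of all 9732 windows, in 15 of 23 (65.2%) of the NF-kB and cytokine list and in 13 of 53 (24.5%) of the genes at least 16-fold lower. The heat shock element GAANNTTC was in 5.71% of all windows, in 9 of 19 (47.4%) of the heat shock list and in 7.55% of the genes at least 16-fold lower. AP-1 motifs, TGACTCA or TGAGTCA, were in 3.42% of all windows, in 11 of 53 (20.8%) of the genes at least 16-fold lower, and in 1 of 30 windows of immediate early genes. The cAMP response element TGACGTCA was in 3.32% of all windows and in 5 of those 53. The CArG box was in 1.40% of all windows and in 1 of the 53. The cAMP response element was also in 6 of 59 windows (10.2%) of ribosomal protein genes, none of which was lower. In the list named for its factor, the NF-kB site was thus more frequent than over all windows, and so was the heat shock element, with no test of either. As these lists are named for the factors, their shares do not bear on the difference between fixed and unfixed cells. The windows with an NF-kB site among the genes at least 16-fold lower include Cxcl1 and Il6 of that list. They also include the near-identical Hspa1a and Hspa1b. Genes at least 2-fold lower in fixed cells held the NF-kB site in 14.4%, AP-1 in 6.11% and the heat shock element in 5.90% of windows, and genes at least 2-fold higher in 7.79%, 2.63% and 6.74%. A match describes the letters of the window and does not show a bound site, and Hspa1b also held letters of an NF-kB site 133 bases before its start.

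Genes that mark satellite cells changed in both directions, with 3 of 27 higher, 10 lower and 14 not called (median -0.35). Pax7 (chromosome 4, 139737062 to 139833528) stood at 23.9, 38.6 and 26.001 RPKM in unfixed cells and at 68.3, 84.9, 47.8 and 60.5 RPKM in fixed cells, without overlap. It was 2.20-fold higher (log2 difference 1.14 ± 0.26 SE, adjusted p = 0.0116 in limma), but its adjusted p was 0.052 without unfixed 1 and 0.061 without unfixed 3. The receptor gene Fgfr4 (1.61-fold) and the integrin gene Itga7 (1.63-fold) were also higher, and each lost its call under 8 of 18 alternatives. Myf5, the myogenic factor present in most quiescent satellite cells, stood at 109, 80.4 and 90.1 RPKM against 76.2, 104, 51.8 and 56.8 RPKM and was not called (log2 difference -0.41, adjusted p = 0.297). Neither was the cadherin gene Cdh15 (0.56, adjusted p = 0.202).

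Among the 10 lower markers, Sdc4, a heparan sulphate proteoglycan of the cell surface, fell most: 1540, 1476 and 1678 RPKM in unfixed cells against 191, 155, 150 and 221 RPKM in fixed cells (8.81-fold lower, adjusted p = 2.08e-05). Calcr, the calcitonin receptor of quiescent satellite cells, stood at 43.5, 52.7 and 50.03 RPKM against 22.2, 29.99, 29.2 and 18.9 RPKM (1.95-fold lower, adjusted p = 0.0136), but its adjusted p was 0.060 without unfixed 2 and 0.069 without unfixed 3. Cd34, a surface sialomucin, was 4.61-fold lower (adjusted p = 0.015) and fixed 1, at 78.2 RPKM, was far above the 11.7 to 24.8 RPKM of the other fixed libraries. Des, the muscle intermediate filament gene, was 2.59-fold lower. The count of higher markers was 1 with median-of-ratios scaling and with no trend. Counts also moved with single libraries, with 1 higher and 5 lower without unfixed 1, 1 and 3 without unfixed 2, none and 4 without unfixed 3, 5 and 9 without fixed 1, 1 and 9 without fixed 3, and 1 and 8 without fixed 5. Several of the lower markers, such as Cd34, Tek, Cav1 and Vcam1, are also expressed by endothelial or stromal cells. Their calls were lost under 3 alternatives for Cd34, 5 for Tek, 3 for Cav1 and 12 for Vcam1 of the 18, with a negative difference under each of them. Without unfixed 2, the library with the most endothelial reads, their log2 differences were -2.10, -1.96, -1.24 and -1.20, and no call was kept. Calls were also lost without unfixed 1 (Cd34, Tek and Vcam1) and without unfixed 3 (Tek, Cav1 and Vcam1).

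Notch signalling, which holds satellite cells in quiescence, changed in few genes: 1 of 23 was higher and 2 were lower (median -0.50). The receptor genes Notch1 and Notch3 were not called. Heyl, a Notch target of satellite cells, stood at 149, 160 and 149 RPKM in unfixed cells and at 113, 129, 129.96 and 129.8 RPKM in fixed cells, a non-overlapping but small difference (-0.28, adjusted p = 0.254). The targets Hes1 (-0.54) and Hey1 (0.38) were not called either. Rbpj, the DNA-binding partner of Notch, was 1.96-fold lower (adjusted p = 0.0285), a call lost under 6 of 18 alternatives, and the ligand Dll4, best known from vessels, was 4.99-fold lower at a low level (2.39 to 7.97 RPKM in unfixed cells), a call lost without unfixed 2 (adjusted p = 0.057). Hes6, which is induced during myogenic differentiation and antagonises Hes1, stood at 13.6, 11.7 and 15.7 RPKM against 68.4, 105, 163 and 149 RPKM and was 8.20-fold higher (adjusted p = 0.000223).

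Genes of commitment to differentiation included some of the largest rises. Myog (chromosome 1, 134290004 to 134292547), the transcription factor of terminal myogenic differentiation, stood at 31.7, 34.1 and 65.7 RPKM in unfixed cells and at 227, 861, 1325 and 1318 RPKM in fixed cells. It was 18.2-fold higher (log2 difference 4.19 ± 0.57 SE, adjusted p = 0.000897 in limma). The lowest fixed library, fixed 1, still exceeded every unfixed library. Cdkn1c of the quiescence list, which encodes the cyclin-dependent kinase inhibitor p57, stood at 60.6, 97.2 and 158 RPKM against 376, 1085, 1387 and 1383 RPKM (9.58-fold higher, adjusted p = 0.00131). Tmem8c, the myoblast fusion gene also known as myomaker, was 8.76-fold higher (adjusted p = 0.00869), cardiac actin Actc1 11.2-fold (adjusted p = 0.0105) and cardiac troponin Tnnt2 5.66-fold (adjusted p = 0.00456). In each of these 5 genes fixed 1 was the lowest of the fixed libraries. Actc1 lost its call without unfixed 2 (adjusted p = 0.0527) and Tmem8c with limma-voom on recovered reads (0.0529). Both actin and troponin T isoforms are known from embryonic muscle, where they precede the adult forms.

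The list as a whole did not move 1 way, with 5 of 18 genes higher, 2 lower and a median of 0.03. Myod1 (chromosome 7, 46376474 to 46379092), which acts before Myog, stood at 258, 261 and 249 RPKM in unfixed cells and at 48.1, 326, 334 and 354 RPKM in fixed cells. Its log2 difference was -0.30 (95% interval -1.69 to 1.09, adjusted p = 0.762) with all libraries and 0.40 (adjusted p = 0.114) without fixed 1, so 1 library sets its sign. Without fixed 1, 8 genes of the list were called higher in place of 5, and without unfixed 2, 4 were called lower in place of 2. Mef2d was 2.12-fold lower and Acta1, the actin of adult fibres, stood at 1731, 156 and 710 RPKM against 32.2, 78.5, 281 and 290 RPKM, a difference that was not called (adjusted p = 0.104). Sox8, a factor expressed in satellite cells, stood at 7.32, 4.39 and 7.73 RPKM against 53.8, 163, 158 and 132 RPKM and was 17.2-fold higher (adjusted p = 0.000178). Chrnd, the delta subunit of the acetylcholine receptor and a known Myog target, was 10.4-fold higher (adjusted p = 0.0134), a call lost with limma-voom (adjusted p = 0.0914) and without unfixed 2 (0.0561).

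**Figure D3:**
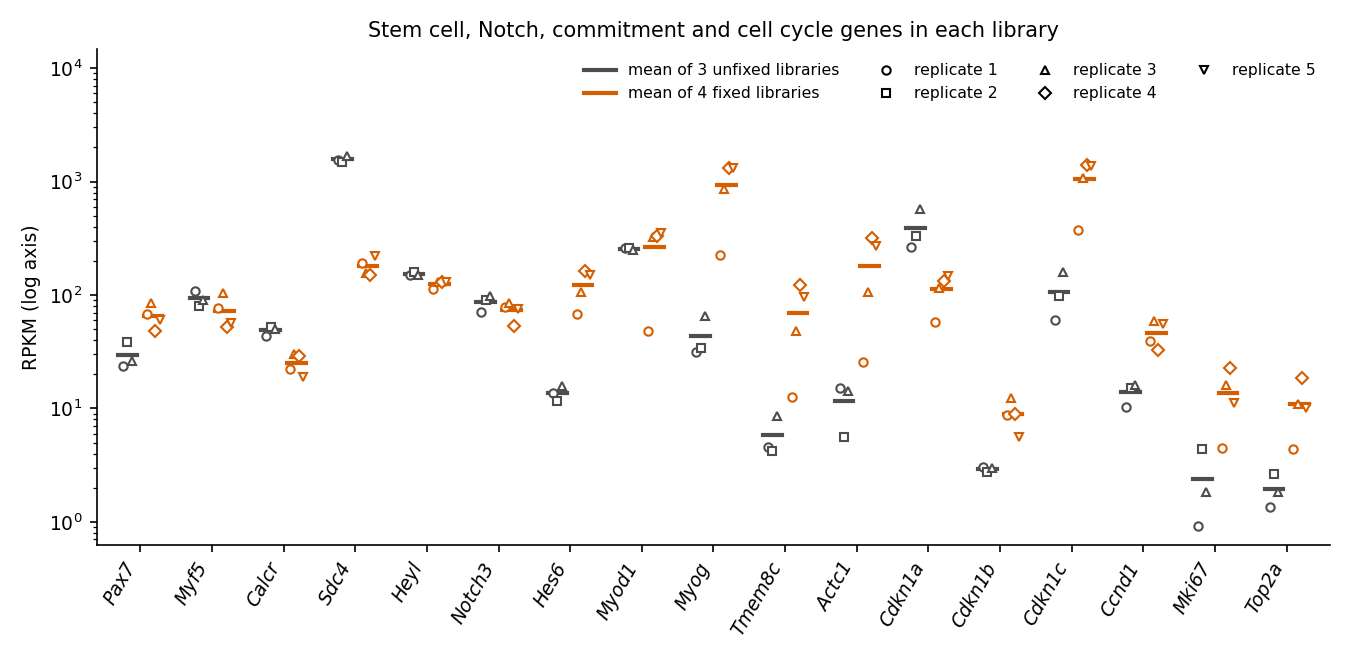
RPKM (log axis) of 17 stem cell, Notch, commitment and cell cycle genes in each library, each point 1 library and each bar a group mean. Myog, Cdkn1c, Hes6, Tmem8c and Actc1 are higher in all fixed than in all unfixed libraries, with fixed 1 lowest, and Myod1 in fixed 1 lies at 48.1 RPKM, below all other libraries.

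Among inhibitors of the cell cycle, 5 of 24 genes of the quiescence list were higher and 2 lower (median 0.27). Without unfixed 1, and likewise without unfixed 2, 3 were higher and 1 lower. Cdkn1a, the p53 target p21, went against Cdkn1c: 262, 334 and 571 RPKM in unfixed cells and 58.3, 116, 132 and 146 RPKM in fixed cells, 3.43-fold lower (adjusted p = 0.00676). Cdkn1b, the gene of p27, stood at 3.02, 2.77 and 2.99 RPKM against 8.75, 12.4, 9.004 and 5.62 RPKM (2.67-fold higher, adjusted p = 0.00948). Cdkn2c was 2.53-fold and the forkhead gene Foxo4 4.43-fold higher, and the pocket protein gene Rbl2 was 2.54-fold lower. The call of Cdkn2c was lost under 3 of 18 alternatives, among them leaving out unfixed 1 or unfixed 2, and that of Rbl2 under 4, among them leaving out any 1 unfixed library. Of the 3 genes of the Cip/Kip family, p21 was thus lower while p27 and p57 were higher.

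Cell cycle genes were higher in 14 of 28 cases and lower in 1 (median 1.07). Levels were low in both groups for Cdk1 and Mki67, and higher for Ccnd1 and Ccnd3. The list took 0.081%, 0.108% and 0.092% of reads in unfixed 1, 2 and 3 and 0.135%, 0.255%, 0.251% and 0.244% in fixed 1, 3, 4 and 5. Cdk1, the kinase that drives mitosis, stood at 1.82, 1.82 and 1.83 RPKM against 6.31, 13.8, 13.8 and 12.1 RPKM (4.95-fold higher, adjusted p = 0.00106). The proliferation marker Mki67 stood at 0.918, 4.395 and 1.85 RPKM against 4.50, 16.1, 22.5 and 11.3 RPKM (4.83-fold higher, adjusted p = 0.0176), a call lost without fixed 3, unfixed 1 or unfixed 3. Cyclin D1, Ccnd1, stood at 10.4, 15.2 and 15.96 RPKM against 39.6, 58.8, 32.6 and 55.7 RPKM (3.25-fold higher, adjusted p = 0.00206), and Ccnd3 was 2.81-fold higher. The replication licensing gene Mcm4 was 2.03-fold lower, a call lost under 9 of 18 alternatives. The count of 14 was 7 without unfixed 1, 5 without unfixed 3 and 9 without fixed 3.

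Ribosomal protein genes were higher in fixed cells with few exceptions, and most genes of respiration were higher too. Of 80 ribosomal protein genes 77 were higher and none lower (median 1.61), and the list took 2.39 ± 0.449% of reads in unfixed cells (SD, n = 3) against 6.72 ± 0.543% in fixed cells (SD, n = 4). Rpl13a stood at 155, 208 and 139 RPKM in unfixed cells and at 634, 581, 727 and 604 RPKM in fixed cells (3.84-fold higher, adjusted p = 0.000293 in limma). The 3 genes not called were Rplp0, Rpl4 and Rpl24. Reads of ribosomal protein genes can be shared with their many pseudogenes, so single values are uncertain. Of 77 nuclear genes of oxidative phosphorylation 56 were higher, 21 were not called and none was lower (median 1.36): Cox8a, a subunit of cytochrome c oxidase, stood at 229, 326 and 258 RPKM against 1042, 1043, 1336 and 1128 RPKM (4.21-fold higher, adjusted p = 0.000225). Of 31 proteasome genes 12 were higher and none lower (median 0.57), with Psmb3 2.78-fold higher, and the count was 7 without unfixed 2 and 7 without unfixed 3. Ribosome biogenesis factors did not follow, with 2 of 30 higher and 8 lower, among them Nop58, a core protein of small nucleolar ribonucleoproteins, 5.51-fold lower (adjusted p = 0.000859). The 8 were 3 without unfixed 1, 4 without unfixed 2 and 5 without fixed 3.

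Mitochondrially encoded genes were higher in 7 of 10 cases and lower in none (median 1.94). ND2, a subunit of complex I, stood at 249.5, 709 and 407 RPKM in unfixed cells and at 3239.7, 2080.4, 4329.9 and 2606 RPKM in fixed cells (7.09-fold higher, adjusted p = 0.00078). COX1 stood at 1808, 3147 and 2004 RPKM against 3318, 3734, 4754 and 3614 RPKM, without overlap but not called (log2 difference 0.76, adjusted p = 0.0742). The mitochondrial 12S ribosomal RNA gene mt-Rnr1 was 11.1-fold higher (adjusted p = 0.000193). ND6, on the opposite strand to the other subunit genes, was 10.8-fold higher, and as no source used here says whether reads were counted by strand, its reads cannot be told apart from antisense reads of that region. Of 15 nuclear RNAs and hosts of small nucleolar RNAs 3 were higher and none lower (median 0.72), 5 without fixed 1 and 1 without unfixed 1 or unfixed 3. Malat1 had a log2 difference of 0.06 (95% interval -0.55 to 0.67) and Neat1 0.25, both with signs that changed with the processing, while the host of small nucleolar RNAs Snhg20 stood at 4.19, 5.50 and 4.21 RPKM against 35.6, 42.7, 57.6 and 41.9 RPKM (8.69-fold higher, adjusted p = 5.1e-05).

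Gene length moved with the rises. In the shortest of 5 equal groups of genes by gene model length (57 to 2071 bases), 27.8% of genes were higher and 8.11% lower, and the median was 0.42. In the other groups, from short to long, 11.2%, 8.90%, 6.40% and 6.75% were higher and 12.5%, 13.4%, 12.4% and 7.73% were lower, with medians from -0.07 to 0.05. The median length was 1439 bases for ribosomal protein genes, 1322 for nuclear oxidative phosphorylation genes, 2169 for proteasome genes and 2861 for immediate early genes, against 3763 for all genes tested. With the ribosomal, oxidative phosphorylation and mitochondrial lists left out, 606 of 2442 genes of the shortest group (24.8%) were still higher. With each library centred within 10 bins of length, 67 ribosomal protein, 37 oxidative phosphorylation, 7 proteasome and 4 mitochondrially encoded genes were higher and 41 immediate early genes lower. Fragment length or integrity of the RNA was not given in the sources used here, and its part in these rises was not tested.

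**Figure D4:**
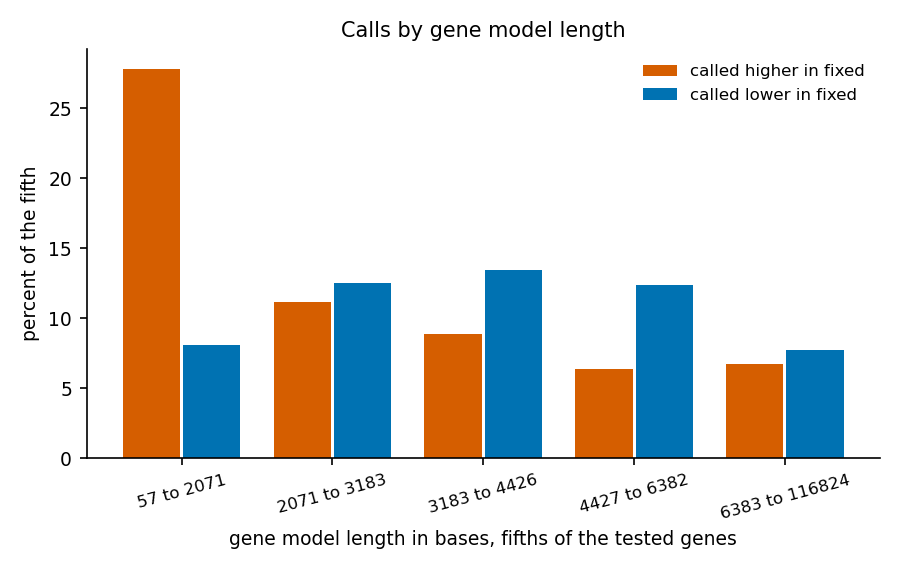
Percent of genes called higher (orange) and lower (blue) in fixed cells in 5 equal groups of tested genes ordered by gene model length in bases. The shortest group has 27.8% higher and 8.11% lower, and in each of the other 4 groups more genes were lower than higher.

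Markers of other cells of the muscle differed between the groups and between single libraries. Muscle fibre genes took 1.84%, 0.252% and 0.668% of reads in unfixed 1, 2 and 3 and 0.149%, 0.241%, 0.414% and 0.334% in fixed 1, 3, 4 and 5, and 12 of 34 were lower and none higher (median -2.23). Actn3, the alpha-actinin of fast fibres, stood at 855, 42.0 and 181 RPKM against 2.47, 7.73, 12.1 and 21.4 RPKM (20.7-fold lower, adjusted p = 0.00868), with unfixed 1 far above the rest. The count of 12 was 3 without unfixed 1, 25 without unfixed 2, 3 without unfixed 3, 7 without fixed 1 and 4 without fixed 3. With limma-voom on recovered reads 7 were lower and 1 higher, and with library sizes from all reads 11 were lower and 1 higher. Leaving out fixed 1 gave 2 fibre genes called higher, as did leaving out fixed 1 and fixed 4 together. Of 22 endothelial genes 17 were lower and none higher (median -2.42). The lower count was 18 without unfixed 1, 11 without unfixed 2 and 12 without unfixed 3. Pecam1, the vessel marker CD31, stood at 12.2, 54.9 and 24.4 RPKM against 1.98, 3.84, 2.09 and 5.07 RPKM (7.35-fold lower, adjusted p = 0.0031).

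Fibro-adipogenic markers, from the stromal cells of muscle, were lower in 8 of 22 cases and higher in none (median -0.92). They were lower in 4 without unfixed 2 and likewise without unfixed 3, and in 5 without fixed 3 and likewise without fixed 4. Leaving out fixed 1 gave 2 of them called higher, as did leaving out fixed 1 and fixed 4 together. Lox, which crosslinks collagen, was 7.71-fold lower, but Pdgfra, the defining receptor of these cells, stood at 1.00 to 2.998 RPKM against 0.828 to 2.11 RPKM with overlapping groups. Tenocyte markers were lower in 5 of 12 cases including Egr1, in 1 without unfixed 2 or without unfixed 3, and in 3 without fixed 3 or without fixed 4. Of the smooth muscle and pericyte list 4 of 14 were lower, among them the pericyte gene Rgs5 (5.69-fold), and smooth muscle actin Acta2 was 3.04-fold higher, its call lost under 5 of 18 alternatives. None of 13 Schwann cell genes and none of 7 erythroid and platelet genes was called by limma or by limma-voom, while 3 and 1 had an unadjusted p under 0.05 in limma. Without fixed 1 and fixed 4 together, 3 erythroid and platelet genes were higher and 1 was lower, and 1 Schwann cell gene was higher. The erythroid and platelet list took 0.00353% of reads in fixed 1 and 0.141% in fixed 5. No member of these lists was at 0 in all fixed libraries, but nearly every gene was above 0 in each library. The part of these cells in the results above was not tested.

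Immune markers showed 2 of 22 genes higher and 3 lower, and the higher ones are both neutrophil genes. The 3 lower were Cd14, the monocyte co-receptor for endotoxin (9.62-fold, adjusted p = 0.00611), and the B cell genes Ms4a1 (3.54-fold, adjusted p = 0.0033) and Cd79a (3.26-fold, adjusted p = 0.0259), the last with a call lost under 5 of 18 alternatives. S100a8, a subunit of calprotectin, stood at 3.09, 1.91 and 1.01 RPKM in unfixed cells and at 15.9, 42.7, 686 and 40.8 RPKM in fixed cells (28.4-fold higher, adjusted p = 0.00892). Its partner S100a9 stood at 4.73, 1.69 and 0.929 RPKM against 29.3, 71.98, 669.7 and 52.9 RPKM (36.9-fold higher, adjusted p = 0.00351). Neither was called by limma-voom (adjusted p = 0.110 and 0.0729). Fixed 4 holds most of this signal, though the other fixed libraries also exceed all unfixed ones. Ptprc, the CD45 gene of all leukocytes, was highest in fixed 4 too, at 13.4 RPKM, and was not called (log2 difference 0.52, -0.24 without fixed 1 and 4). The keratin gene Krt8, an epithelial marker, stood at 0.174, 2.13 and 0.147 RPKM against 111, 13.8, 18.2 and 13.7 RPKM (24.4-fold higher, adjusted p = 0.00251). Mucl2 stood at 18.2, 13.1 and 2.92 RPKM against 94860, 2462, 951 and 38.2 RPKM, so that its 179-fold difference (adjusted p = 0.0258) covers fixed libraries that differ strongly among themselves, and its call was lost under 5 of 18 alternatives.

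**Figure D5:**
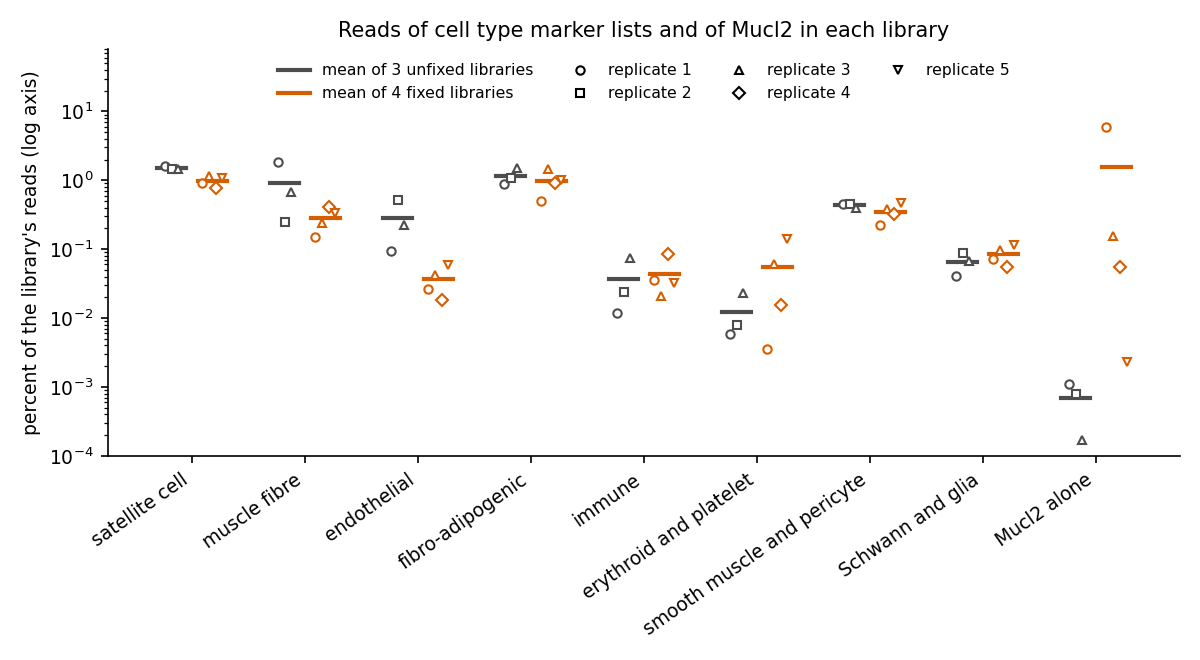
Percent of reads (log axis) in marker lists of 8 cell types and in Mucl2 alone, each point 1 library and each bar a group mean. Endothelial markers are lower in all fixed than in all unfixed libraries, muscle fibre markers overlap with unfixed 1 highest at 1.84%, and Mucl2 spans 0.00233% to 5.93% among the fixed libraries.

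The other table of the series gives readouts of the same genes that this comparison did not use: total RNA of unfixed isolated cells and of whole hindlimb muscle, RNA labelled in vivo for 6 h or during isolation, and cells isolated with alpha-amanitin or its solvent DMSO, 4 libraries each. Per the series' design text, in vivo labelling used Pax7CreER/+: UPRTHA/+ mice, in which Cre driven by Pax7 turns on the enzyme UPRT that lets cells use 4-thiouracil. The table was normalised separately, so its groups were compared only with each other, as ratios of group means with no test. The isolation label libraries held 2321903 to 7742378 reads and the other groups used 15307952 or more. Of the 119 genes of the induced lists that were lower in fixed cells, 76 (63.9%) were at least 2-fold higher in the isolation label than in the 6 h label, against 16.7% of all genes. They were 76 of the 1999 genes that high in the isolation label. Fos stood at 532 ± 176 RPKM in the isolation label, 15.4 ± 0.258 in the 6 h label and 876 ± 70.7 in isolated cells (SD, n = 4 each). These labels also differed in stem cell and fibre RNA. Pax7 stood at 9.74 ± 3.10 RPKM in the isolation label and 0.318 ± 0.0581 in the 6 h label (SD, n = 4 each). Acta1 stood at 8474 and 29939 RPKM in the same order. The part of this difference in the isolation label shares, here and below, was not tested. Of the same 119 genes, 89 (74.8%) were at least 2-fold lower in whole muscle than in isolated cells, against 25.4% of all genes. With alpha-amanitin, 1 (0.840%) was at least 2-fold lower than with DMSO, against 0.961% of all genes. The median log2 ratio of alpha-amanitin over DMSO was 0.37 for the 119 genes and 0.38 for all genes, so ratios were shifted upward in both. Alpha-amanitin 1 had 13353 genes at 1 RPKM or more, against 11483 to 11580 in the other alpha-amanitin libraries.

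All genes called and at least 2-fold different in fixed cells were set against the same readouts. In the isolation label, 22.6% of those higher and 26.5% of those lower in fixed cells were at least 2-fold above the 6 h label. The share of all genes was 16.7%. In whole muscle, 17.4% of those lower in fixed cells were at least 2-fold above isolated cells, against 34.4% of all genes. A further 45.5% were at least 2-fold below isolated cells, against 25.4% of all genes. With alpha-amanitin 13.9% of those lower in fixed cells were at least 2-fold above DMSO, against 18.5% of all genes. At least 2-fold below DMSO were 1.64%, against 0.961% of all genes. Of those higher in fixed cells, 724 of 1207 had a mean in whole muscle of at least 2-fold that in isolated cells, against 34.4% of all genes, and they made up 17.1% of the 4241 genes that high. With alpha-amanitin, 555 of them (46.2%) were at least 2-fold higher than with DMSO, against 18.5% of all genes, and they made up 25.1% of the 2211 genes that high. Myog was 7.26 ± 0.391 RPKM in isolated cells, 20.6 ± 1.15 in whole muscle, 60.2 ± 21.4 with alpha-amanitin and 15.3 ± 2.41 with DMSO (SD, n = 4 each). Cdkn1c was 14.3 ± 0.55, 40.8 ± 3.39, 111 ± 37.8 and 21.8 ± 2.63 RPKM in the same order. Sox8 did not share this order, with 4.51 ± 0.525, 0.348 ± 0.0242, 4.80 ± 1.74 and 5.64 ± 0.715 RPKM. Muscle fibre RNA in whole muscle and in alpha-amanitin libraries differs from that in isolated cells, as Acta1 shows with 49916 RPKM in whole muscle, 4323 with alpha-amanitin and 54.0 in isolated cells, and its part in these shares was not tested.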

How the data were processed

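The values are RPKM that the authors deposited, in 1 table of 13938 genes for the 7 fixation libraries and another table, normalised separately, for the other 32. The tools named per the submitters' processing notes are Subread's featureCounts, edgeR, STAR and Trim Galore, and the build is mm10, with versions, annotation and strand use not given in the sources used here. RPKM times gene length and a factor per library gave whole reads within 0.1 of a read for all values, which gave the depth (22704011 to 25045404 reads) and the authors' library scaling (0.903 to 1.01). Of 555 genes without a symbol, 468 were named from GENCODE.

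Tests used limma 3.58.1 (R 4.3.3) with the trend option on log2(RPKM + 0.5), over the 12816 genes that reached 1 RPKM in 3 or more libraries, after being tested on simulated data. A gene counts as called when its limma p, adjusted by Benjamini-Hochberg over all these genes, is under 0.05. Folds come from the same log2 scale, so those of weakly expressed genes are understated. No gene list was tested, and lists are given by counts and medians. No value column was left unused. Tables were made with Python 3.11.15, numpy 2.4.6 and pandas 2.3.3, and figures with matplotlib 3.10.9.

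The experiment, the 26 lists and the rule for naming genes were chosen with earlier results of these data known. The rule named, among called genes whose groups do not overlap, up to 12 by size in each direction at 5 RPKM or more that are not models known by number, up to 4 members of each list in each direction by adjusted p, and a set of stem cell and early response genes in any case. Other list members given with values, and Mucl2 and Krt8 as cases of single libraries, were picked after their values were seen. The alternatives were other pseudocounts, filters, scalings, centring by length, limma-voom on the recovered reads, no trend, a replicate block and leaving out libraries.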

Additional observations from a re-analysis of the deposited data

Results flagged for a closer look

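In groups of 4 libraries, which here are the fixed ones, a library stood apart when its gap to the nearest other exceeded Dixon's 95% limit for 4 values. Of 204 groups checked 17 did so. Chance flags about 1 in 20 independent groups, but these groups share the same libraries. Some genes were also picked after their values were seen, so the 17 are a description and not a test of excess. Fixed 1 stood apart with 94860 RPKM of Mucl2 (38.2 to 2462 in the others), 111 RPKM of Krt8 (13.7 to 18.2), 48.1 RPKM of Myod1 (326 to 354), 113 RPKM of the Notch target Heyl (129 to 129.96) and 0.135% of reads in the cell cycle list (0.244% to 0.255%). Fixed 1 also had 70.6 RPKM of Neat1 (21.5 to 29.9). Fixed 4 stood apart with 686 RPKM of S100a8 (15.9 to 42.7), 670 RPKM of S100a9 (29.3 to 71.98), 77.7 RPKM of Fos (29.5 to 36.5), 11.6 RPKM of Fosl1 (0.611 to 1.51), 4.88 RPKM of Il6 (0.682 to 1.00), 17.3 RPKM of the small Maf factor Maff (6.94 to 7.94), 7.43 RPKM of the deadenylase gene Pan2 (15.1 to 16.4), 12.3 RPKM of Stat3 (16.7 to 17.3) and 0.283 RPKM of the pericyte potassium channel gene Kcnj8 (1.75 to 2.01). Fixed 5 stood apart with 734 RPKM of the actin-severing gelsolin Gsn (389 to 409) and 8.71 RPKM of the tendon matrix gene Thbs4 (0.902 to 2.19).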

How the results depend on the processing

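Of 144 called genes among the 178 whose values were recomputed, 105 were called under all 18 alternatives. The 178 include genes named for a large difference or a small adjusted p, so this share does not stand for all calls. With the replicate block, 845 genes were higher and 980 lower. Of the 2951 genes called in the main fit, 1630 (55.2%) were called with the block too. The groups share only the numbers 1 and 3, and the labels do not say whether these pair samples. The correlations of deviations for them, 0.035 and -0.037, cannot decide it with so few libraries. The main fit therefore had no block, and the block fit is given only here. Leaving out 1 library gave 809 to 1821 higher and 718 to 1563 lower genes, lowest without unfixed 3. Of the 2951 genes called in the main fit, 65.6% were called without unfixed 1, 60.9% without unfixed 2 and 51.6% without unfixed 3. All other alternatives fixed beforehand kept both counts within 1.5 times. The sign turned for 8 genes that were not called: Hsf1 (-0.035 with length centring, -0.101 with the block), Malat1 (-0.019 with median-of-ratios scaling, -0.143 to 0.185 on leaving out 1 library, negative without fixed 3 or unfixed 1), Neat1 (-0.130 to 0.433 on leaving out 1 library, negative without fixed 1, and -0.039 without fixed 1 and 4), Rpl4 (-0.141 with length centring), Myod1 (-0.556 to 0.399 on leaving out 1 library, positive only without fixed 1, 0.41 without fixed 1 and 4), Notch1 (0.045 with the block, 0.042 without fixed 1 and 4), Ptprc (-0.24 without fixed 1 and 4) and Spry1 (0.027 with library sizes from all reads, -0.162 to 0.077 on leaving out 1 library, positive without fixed 1, fixed 4, unfixed 2 or unfixed 3, and 0.113 without fixed 1 and 4). The cause was not tested. Leaving out fixed 1 and 4 together, and list counts under each setting, were added after seeing the data. The groups of 3 and 4 libraries limit the precision, and no replicate is known to be a separate animal.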
